A study of Homo sapiens with 8 samples.

Results

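The insulin-like growth factor (IGF) axis was followed here through 10 genes, taken by name from a table of 60332 genes: the ligands IGF1 and IGF2, the receptors IGF1R, IGF2R and INSR, the receptor substrates IRS1 and IRS2, and the binding proteins IGFBP2, IGFBP4 and IGFBP5. All 10 had a row, and 9 passed the filter on low values; IGF2 did not. The cells were SK-N-MC, an established Ewing sarcoma cell line that carries the EWSR1::FLI1 fusion, a transcription factor that binds GGAA repeats. Poly-A RNA was sequenced from 8 libraries in 4 groups of 2. Every group carried lentiviral dCas9-KRAB, a Cas9 that cannot cut, fused to a repressor domain, and was a pool of infected cells kept under puromycin at 1 µg/ml for 3 days and used within 5 passages.

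Control normoxia and control hypoxia cells had the empty dCas9-KRAB vector. The paper's text, however, calls the control cells parental, and their titles say only Ctrl. If they lacked the vector, its effect could not be told apart from that of a guide. In eKD1 hypoxia and eKD2 hypoxia cells the vector also expressed a guide RNA, different for each, that brings the repressor to the GGAA repeat enhancer of LOXHD1, a gene of the stereocilia that EWSR1::FLI1 switches on in Ewing sarcoma (eKD, enhancer knockdown). Hypoxia was 16 h in 1% oxygen with 5% CO2. The knockdown groups have no normoxic libraries here, so the effect of hypoxia can be read in control cells only. The study calls the libraries biological duplicates, but the labels do not say whether they came from separate cultures, and the p-values measure only the spread between these libraries.

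IGF1 and IGF2 are secreted peptides that bind IGF1R, a tyrosine kinase at the cell surface, and INSR, the insulin receptor. IGF2R is a scavenger without kinase activity that carries IGF2 to lysosomes. The activated kinases phosphorylate IRS1 and IRS2, docking proteins from which the PI3K to AKT and the RAS to MAPK cascades start, and AKT in turn keeps FOXO transcription factors out of the nucleus. IGF binding proteins hold the ligands outside the cell, and proteases such as PAPPA, which cuts IGFBP4 and IGFBP5, release them. In Ewing sarcoma, IGF1R signaling is needed for transformation by the fusion and has been a drug target in patients.

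The sequences just upstream of the transcription start are shown for the 5 genes of the axis whose level passed the test in at least 1 comparison. IGF2R, which passed in none, is also shown. It holds the most matches when each strand is counted, 6 against 5 in IGF1R. IGF1R, which also passed in none, holds more separate sites. Each line gives the 250 bases before the start, 5′ to 3′ on the gene's strand, from the RefSeq promoter table (GRCh38.p14). Capitals mark ACGTG or GCGTG on either strand, the core letters of the site that hypoxia-inducible factors (HIF) bind. The regions are chr2:216633170-216633419 (plus strand) for IGFBP2, chr17:40443200-40443449 (plus) for IGFBP4, chr2:216695550-216695799 (minus) for IGFBP5, chr2:226799821-226800070 (minus) for IRS1, chr13:109786584-109786833 (minus) for IRS2 and chr6:159968832-159969081 (plus) for IGF2R.
IGFBP2: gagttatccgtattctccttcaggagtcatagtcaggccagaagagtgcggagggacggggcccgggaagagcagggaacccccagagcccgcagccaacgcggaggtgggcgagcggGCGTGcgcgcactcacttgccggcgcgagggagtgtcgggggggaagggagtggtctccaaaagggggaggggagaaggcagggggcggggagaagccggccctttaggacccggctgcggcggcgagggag
IGFBP4: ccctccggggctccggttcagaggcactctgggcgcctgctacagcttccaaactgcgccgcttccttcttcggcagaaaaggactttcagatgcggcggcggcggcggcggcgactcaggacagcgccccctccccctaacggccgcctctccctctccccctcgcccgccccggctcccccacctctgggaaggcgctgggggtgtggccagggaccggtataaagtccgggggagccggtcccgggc
IGFBP5: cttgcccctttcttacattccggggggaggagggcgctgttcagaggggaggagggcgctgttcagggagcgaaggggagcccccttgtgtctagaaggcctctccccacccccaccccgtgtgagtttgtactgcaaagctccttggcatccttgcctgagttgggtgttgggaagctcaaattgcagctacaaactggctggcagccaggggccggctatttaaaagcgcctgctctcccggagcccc
IRS1: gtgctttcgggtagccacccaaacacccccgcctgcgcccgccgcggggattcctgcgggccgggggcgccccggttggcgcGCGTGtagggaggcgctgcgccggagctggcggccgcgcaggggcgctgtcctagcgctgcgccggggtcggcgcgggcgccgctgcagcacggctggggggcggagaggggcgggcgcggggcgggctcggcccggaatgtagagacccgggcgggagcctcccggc
IRS2: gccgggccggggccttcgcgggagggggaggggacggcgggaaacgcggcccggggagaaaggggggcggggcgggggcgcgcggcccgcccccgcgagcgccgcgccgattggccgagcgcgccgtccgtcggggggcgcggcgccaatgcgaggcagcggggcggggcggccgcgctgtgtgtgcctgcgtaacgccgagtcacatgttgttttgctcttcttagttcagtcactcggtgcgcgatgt
IGF2R: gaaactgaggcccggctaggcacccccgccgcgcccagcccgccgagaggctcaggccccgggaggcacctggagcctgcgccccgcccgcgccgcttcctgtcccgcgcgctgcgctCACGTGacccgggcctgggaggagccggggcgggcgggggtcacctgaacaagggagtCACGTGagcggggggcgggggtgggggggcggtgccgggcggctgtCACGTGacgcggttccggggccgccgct

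A start that lies in the annotated main transcript was found in that table for 8 of the 10 genes, IGF1 and IGF2 being without one. The HIF core letters were present upstream of 4 of the 8, against 43.2% of all 35116 starts in the table. IGFBP2 and IRS1 each held 1 GCGTG. IGF1R held 5 matches. In IGF2R the letters form CACGTG 3 times, a palindrome that reads ACGTG on both strands and is present upstream of 6.34% of all starts. IGFBP4, IGFBP5, IRS2 and INSR held none. The letters TGTTTAC, the core that FOXO factors bind, and GGAAGGAA, a run of the repeat that EWSR1::FLI1 binds, each searched on both strands, were in none of the 8 and in 2.98% and 3.06% of all starts. These are matches of letters and not measured binding.

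Expression is given in FPKM as deposited by the authors, that is, fragments relative to the length of the transcript and to the mapped reads of the library, so levels can be compared between genes of different length. FPKM summed to between 865107 and 1041457 per library, and the control hypoxia libraries had the largest sums. Absolute depth is unknown. Relative depth, read from the values of genes with very few reads, ran from 55.7% to 100% of the deepest library. LOXHD1 stood at 93.0 and 91.1 FPKM in control hypoxia, 17.3 and 15.0 in eKD1 and 11.7 and 11.8 in eKD2, and at 156 and 169 in control normoxia, so the knockdown libraries went with their labels. The hypoxia genes CA9, VEGFA, LDHA and SLC2A1 rose in control hypoxia by 2.02 to 6.29 on the log2 scale, with 1 FPKM added to each value. The 6.29 is that of CA9, which was at 0 in control normoxia, so its size depends on the value added. All 9 Ewing sarcoma markers examined (CD99, NKX2-2, FLI1, EWSR1, NR0B1, PRKCB, STEAP1, LIPI and CCND1) had at least 1 FPKM in every library, with sums of 1604 to 1634 FPKM in control normoxia, 1362 to 1382 in control hypoxia, 1599 to 1683 in eKD1 and 1547 to 1551 in eKD2. CCND1 and CD99 made up most of these sums, so the sums hide changes of single markers. From control normoxia to control hypoxia the mean of CD99 rose from 316 to 412 FPKM. Every other Ewing sarcoma marker had a lower mean there, among them FLI1 (36.6 to 21.5), EWSR1 (250 to 157) and LIPI (53.3 to 11.0). Of 9 markers of other cell types, CD3E, KRT5 and MYOG were listed at 0 in every library and 2 reached 1 FPKM, EPCAM and PTPRC. The sum of the 9 was 27.8 to 28.9 FPKM in control normoxia, 9.22 to 10.7 in control hypoxia, 17.1 in both eKD1 libraries and 18.3 to 21.6 in eKD2. PTPRC, the leukocyte antigen CD45, made up most of it, at 23.2 FPKM on average in control normoxia and 5.13 in control hypoxia. In hypoxia PTPRC therefore moved in the same direction as IRS2 and IGFBP5 described below, as did the Ewing sarcoma markers other than CD99. The part of any of these markers in those results was not tested. In such bulk RNA, fewer cells expressing a gene and less RNA per cell cannot be told apart.

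The axis was led by IGFBP2 RNA, by IGF1 as the only ligand at an appreciable level, with more IGF1R than INSR in every library, while IGF2 was close to 0. Averaged over the 8 libraries, IGFBP2 had 253 FPKM, more than 96.6% of the genes tested, and ranged from 165 to 345. IGF1 followed with 73.7 FPKM and a range of 56.8 to 88.3. IRS2, IGF2R and IGFBP5 averaged 47.7, 44.9 and 43.2 FPKM. IGFBP4 and IGF1R averaged 33.8 and 32.6 FPKM, INSR 9.58 and IRS1 8.69. The lowest IGFBP2 library stood above the highest IGF1 library, and the lowest IGF1 library above the highest library of every gene that follows. The levels from IRS2 down to IGF1R overlapped between neighbours in this order, as did INSR and IRS1, but the lowest IGF1R library, at 26.1 FPKM, stood far above the highest of INSR, at 11.4.

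IGF2 was listed at 0.0910 and 0 FPKM in control normoxia, at 0.0575 and 0.0170 in control hypoxia and at 0 in all 4 knockdown libraries. These values lie near the smallest that the libraries can show, and no change is read from them. Adding the 3 rows of genes that overlap IGF2 brought no library above 0.147 FPKM. IGF1 was thus far above IGF2 wherever IGF2 was above 0, the ratio of IGF2 to IGF1 being 0.00160 in the normoxia library and 0.000766 and 0.000193 in the control hypoxia libraries.

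**Figure D1:**
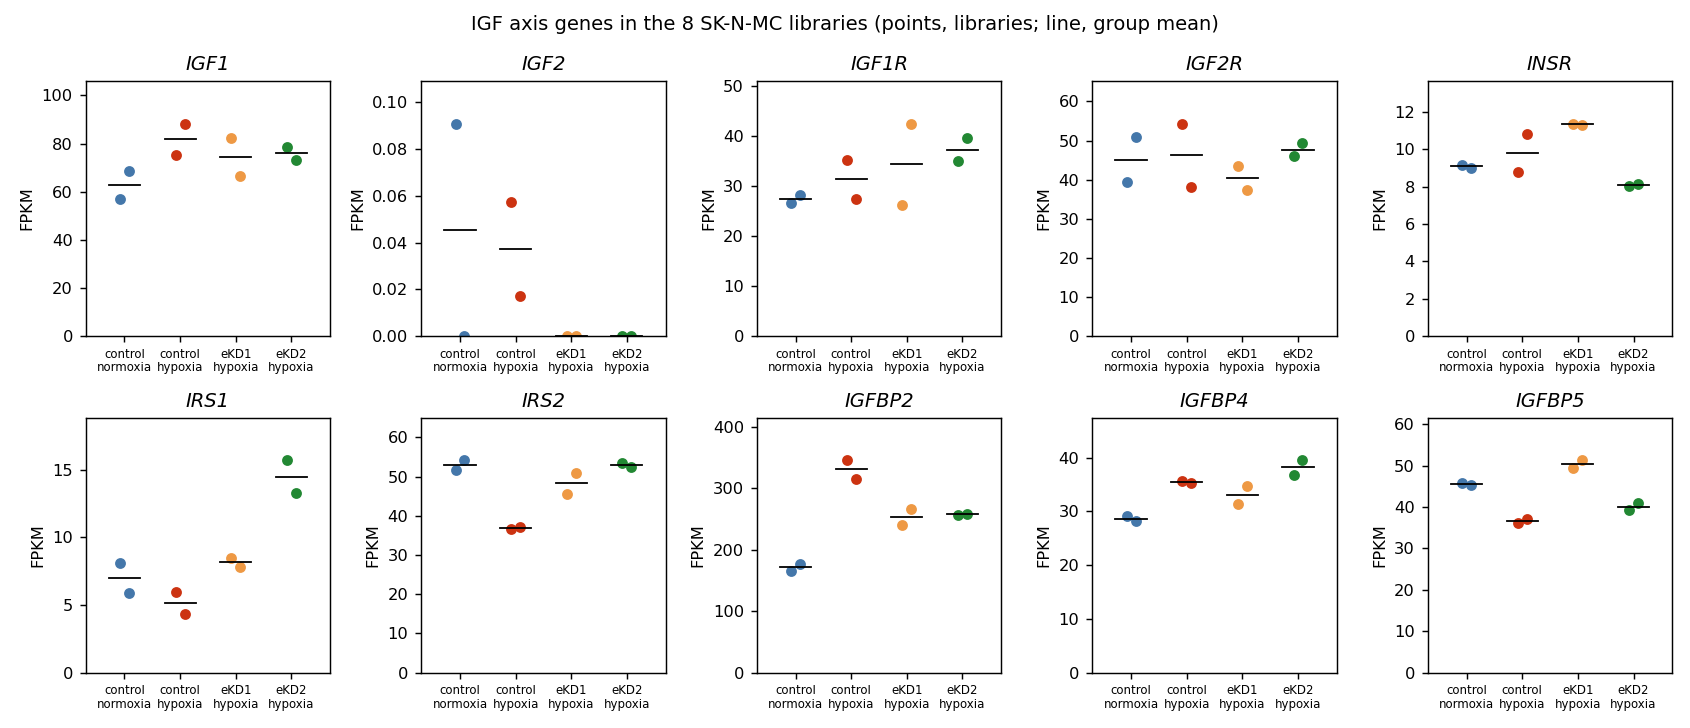
FPKM of the 10 IGF axis genes in each of the 8 SK-N-MC libraries, with 1 panel per gene, each with its own linear axis from 0. Points are libraries and lines are means of the 2 libraries of a group; IGFBP2 is highest in control hypoxia, IRS2 and IGFBP5 are lowest there, and IRS1 is highest in eKD2.

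Differences were tested with limma on log2(FPKM + 1), fitted over the 15372 genes that reached 1 FPKM in 2 or more of the 8 libraries, 1 comparison of 2 against 2 libraries at a time. A gene was called at a Benjamini-Hochberg adjusted p under 0.05 over all genes tested. Changes are given as log2 differences of FPKM + 1 with their standard error (SE). Folds, and fractions of a normoxic level, are also of FPKM + 1.

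The first comparison asks what low oxygen does to the axis in control cells. The genes that passed the test were the binding proteins and IRS2, in both directions, while IGF1 and the receptors did not pass. This is not shown to be a contrast between classes. IGF1 differed by 0.38 (SE 0.139), more in size than the called IGFBP4 (0.30, SE 0.0720) and IGFBP5 (-0.31, SE 0.0657). IGFBP2 and IGFBP4 rose, and IGFBP5 and IRS2 fell. Thus 4 of the 9 genes tested were called, 2 higher and 2 lower, where the share of all genes called was 32.2% (16.2% higher and 16% lower). After rescaling by median ratios, and likewise at equal FPKM totals, 3 were called, 1 higher and 2 lower. The libraries of the 2 groups did not overlap for 5 of the 9, against 70.4% of all genes.

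IGFBP2 (ENSG00000115457; chromosome 2, 217497551 to 217529159, plus strand, GRCh37), a binding protein that many tumors secrete, had 165 and 177 FPKM in control normoxia and 345 and 315 in control hypoxia. Both hypoxic libraries stood well above both normoxic ones. The difference was 0.94 (SE 0.0713, limma adjusted p = 0.00809), a 1.92-fold rise and the largest among the 9. Its level moved from 171 ± 8.26 to 330 ± 21.2 FPKM (SD, n = 2).

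IGFBP5 (ENSG00000115461; chromosome 2, 217536828 to 217560272, minus strand, GRCh37) lies 7668 bases from IGFBP2, with no protein-coding gene between the pair. It had 45.9 and 45.3 FPKM in control normoxia and 36.2 and 37.2 in control hypoxia. These neighbours thus went opposite ways, IGFBP5 falling to 0.809 of its normoxic level, a log2 difference of -0.31 (SE 0.0657, limma adjusted p = 0.0389). Without the mean-variance trend in limma its adjusted p was 0.0700. Its call was lost also with a replicate block, that is, with the replicate number added to the fit.

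IGFBP4 (ENSG00000141753; chromosome 17, 38599702 to 38613977, plus strand, GRCh37), which binds the ligands until PAPPA cuts it, had 29.1 and 28.1 FPKM in control normoxia and 35.7 and 35.2 in control hypoxia. The pairs did not overlap, and the rise was 0.30 (SE 0.0720, limma adjusted p = 0.0486), or 1.23-fold. This call was lost when the libraries were rescaled by median ratios (limma adjusted p = 0.0533), without the variance trend (0.0745), and at equal FPKM totals, where the difference was 0.07 (0.539). It was lost also with the replicate block. Equal totals moved the median of all genes to -0.19, so that IGFBP4 still stood above that median.

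IRS2 (ENSG00000185950; chromosome 13, 110405042 to 110438930, minus strand, GRCh37) had 51.7 and 54.2 FPKM in control normoxia and 36.6 and 37.1 in control hypoxia. Both hypoxic libraries were lower, and IRS2 fell to 0.702 of its normoxic level, a log2 difference of -0.51 (SE 0.0672, limma adjusted p = 0.0155). IRS1 (ENSG00000169047; chromosome 2, 227596028 to 227664536, minus strand, GRCh37), its relative, had 8.11 and 5.88 FPKM against 5.96 and 4.31, and the groups overlapped. Its difference of -0.38 had a 95% interval of -1.05 to 0.29.

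Among ligands and receptors, IGF1 (ENSG00000017427; chromosome 12, 102789652 to 102875522, minus strand, GRCh37) came nearest to a call. It had 56.8 and 68.6 FPKM in control normoxia and 75.1 and 88.3 in control hypoxia, without overlap. The difference was 0.38, with a 95% interval of -0.01 to 0.77 (limma adjusted p = 0.117). IGF1R (ENSG00000140443; chromosome 15, 99191768 to 99507759, plus strand, GRCh37) had 26.5 and 28.2 FPKM against 35.3 and 27.5, with an interval of -0.24 to 0.60. IGF2R (ENSG00000197081; chromosome 6, 160390114 to 160534539, plus strand, GRCh37) had 39.5 and 50.8 against 54.4 and 38.2, with an interval of -0.62 to 0.67. INSR (ENSG00000171105; chromosome 19, 7112266 to 7294425, minus strand, GRCh37) had 9.15 and 9.03 against 8.78 and 10.8, with an interval of -0.32 to 0.51. For the 3 receptors the libraries of a group differed by as much as the groups did, and at equal FPKM totals each difference changed sign. Changes within these intervals were not detectable here.

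With 1 of the 4 libraries left out, whichever it was, no gene of the whole table was called. Under these fits the IGFBP2 difference ran from 0.88 to 1.01, with limma adjusted p from 0.0626 to 0.105, and that of IRS2 from -0.54 to -0.48 (0.0665 to 0.111). Those of IGFBP4 and IGFBP5 ran from 0.27 to 0.32 and from -0.32 to -0.29.

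**Figure D2:**
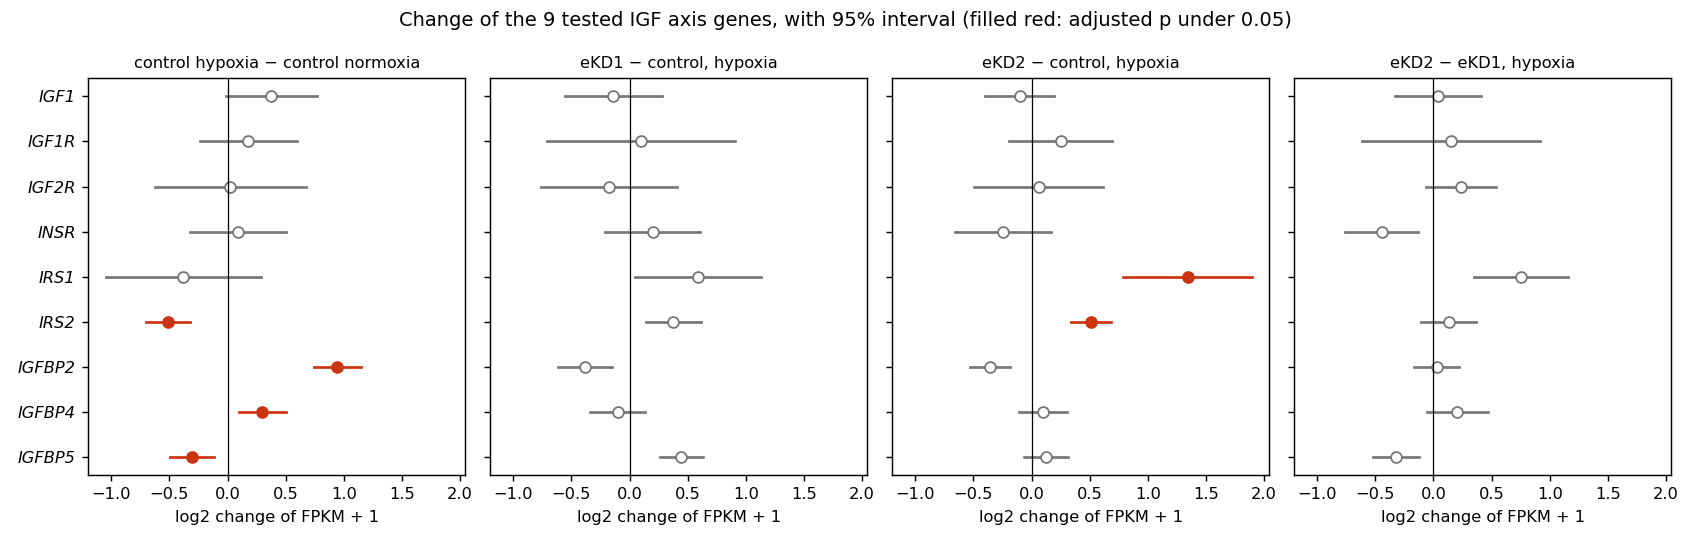
Differences of log2(FPKM + 1) for the 9 tested IGF axis genes in the 4 comparisons, drawn as points with 95% intervals from limma; filled red points passed an adjusted p of 0.05. In hypoxia IRS2, IGFBP2, IGFBP4 and IGFBP5 passed, in eKD2 against control IRS1 and IRS2 did, and in the panels of eKD1 against control and eKD2 against eKD1 none did.

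The next comparisons ask what silencing the LOXHD1 enhancer does to the axis in hypoxic cells. Each guide was set against the same 2 control hypoxia libraries, which are also the hypoxic side of the comparison above. A chance deviation of those libraries therefore enters all 3, and the values below are given side by side without counting their likeness as a result.

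In eKD1 hypoxia cells no gene of the axis was called against control hypoxia, where 0.0651% of all genes were. At an unadjusted limma p under 0.05 there were 4 of the 9, IRS1, IRS2, IGFBP2 and IGFBP5, against 21.7% of all genes. The groups did not overlap for 6 of the 9, against 53.6% of all genes. IRS2 had 45.7 and 50.8 FPKM in eKD1, 0.38 above control hypoxia (95% interval 0.14 to 0.61, limma adjusted p = 0.143). IGFBP2 had 240 and 266 FPKM, with a difference of -0.38 (-0.61 to -0.15, limma adjusted p = 0.140). IGFBP5 had 49.5 and 51.3 FPKM, 0.45 above control hypoxia (0.26 to 0.63, limma adjusted p = 0.115). In all 3 genes both eKD1 libraries stood on the side of control normoxia. Fitting the 8 libraries together, with 1 shared estimate of the spread, brought these 3 under the threshold, with limma adjusted p of 0.0486 for IRS2, 0.0438 for IGFBP2 and 0.0242 for IGFBP5.

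IRS1 had 8.49 and 7.81 FPKM in eKD1, against 5.96 and 4.31 in control hypoxia. The difference of 0.59 had a 95% interval of 0.05 to 1.13 (limma adjusted p = 0.208). The other genes showed less. IGF1 had 82.1 and 66.5 FPKM, IGF1R 26.1 and 42.5, and IGF2R 43.4 and 37.4, all overlapping control hypoxia, with intervals of -0.55 to 0.28, -0.71 to 0.91 and -0.76 to 0.41. INSR had 11.4 and 11.3 FPKM and IGFBP4 31.4 and 34.7, with intervals of -0.21 to 0.61 and -0.34 to 0.14. The 2 eKD1 libraries of IGF1R lay far apart, and its interval was the widest of these.

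In eKD2 hypoxia cells both receptor substrates rose against control hypoxia. IRS1 and IRS2 were the 2 of 9 genes called, both higher, against 9.61% of all genes called (5.8% higher and 3.81% lower). After rescaling by median ratios 3 were called, 2 higher and 1 lower. The groups did not overlap for 6 of the 9, against 62.1% of all genes. IRS1 had 15.7 and 13.2 FPKM in eKD2 and 5.96 and 4.31 in control hypoxia, so that the lower eKD2 library exceeded every library of the other 3 groups. The rise was 1.34 (SE 0.195, limma adjusted p = 0.0418), or 2.54-fold in FPKM + 1, which understates the fold in FPKM. It was the largest of any gene of the axis in these comparisons. IRS1 remained among the less abundant genes of the axis. IRS2 had 53.5 and 52.4 FPKM against 36.6 and 37.1, a rise of 0.51 (SE 0.0602, limma adjusted p = 0.0339), or 1.43-fold. Its mean of 52.9 FPKM in eKD2 was the same as in control normoxia, also 52.9.

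Both calls were lost without the variance trend, at limma adjusted p of 0.0625 for IRS1 and 0.0646 for IRS2, and both with the replicate block. That of IRS1 was lost also when genes at low values were kept in the fit (0.103). Of 8 alternatives that kept all libraries, IRS1 was called in 5 and IRS2 in 6. Leaving out either library of either group left no gene of the axis called, with differences of 1.15 to 1.54 for IRS1 and 0.50 to 0.53 for IRS2.

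IGFBP2 lay just outside the threshold in eKD2. It had 256 and 259 FPKM, below both control hypoxia libraries and above both control normoxia libraries, with a difference of -0.36 (95% interval -0.53 to -0.18, limma adjusted p = 0.0503). It passed when only genes with a mean of at least 5 FPKM were tested (0.0416), after rescaling by median ratios (0.0387) and in the shared fit (0.0248). Its relatives stayed nearer to control hypoxia, IGFBP4 at 36.8 and 39.5 FPKM (interval -0.10 to 0.31) and IGFBP5 at 39.2 and 40.9 (-0.07 to 0.31).

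Ligand and receptors in eKD2 differed from control hypoxia by less than these data can resolve. IGF1 had 78.6 and 73.1 FPKM, with an interval of -0.40 to 0.20. IGF1R had 35.0 and 39.6 (-0.19 to 0.69), IGF2R 46.0 and 49.4 (-0.49 to 0.62) and INSR 8.01 and 8.13 (-0.66 to 0.17). INSR was the only one of the 4 whose eKD2 libraries lay outside the range of control hypoxia, below it.

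The 2 guides were then compared directly, eKD2 against eKD1. No gene of the axis was called in limma, where 0.403% of all genes were, and 3 had an unadjusted p under 0.05, against 23.6% of all genes. The groups did not overlap for 6 of the 9, against 55.2% of all genes. IRS1 differed by 0.75 (95% interval 0.35 to 1.16, limma adjusted p = 0.106), INSR by -0.45 (-0.76 to -0.13, limma adjusted p = 0.140) and IGFBP5 by -0.33 (-0.52 to -0.13, limma adjusted p = 0.118). IGFBP5 passed in the shared fit of 8 libraries (0.0365). So IRS1 being called with eKD2 and not with eKD1 is not shown to be a difference between the guides. IGFBP2 and IRS2 differed little between them, by 0.03 (-0.17 to 0.22) and 0.13 (-0.10 to 0.37). IGF1, IGF1R, IGF2R and IGFBP4 differed by 0.04, 0.15, 0.24 and 0.20, each with an interval that includes 0.

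Ratios of FPKM within a library do not depend on how the libraries were scaled. They are given as values, because 2 against 2 libraries cannot reach an exact two-sided permutation p below 0.333. The ratio of IGFBP2 to IGFBP5 was 3.60 and 3.91 in control normoxia, 9.54 and 8.48 in control hypoxia, 4.85 and 5.20 in eKD1 and 6.55 and 6.33 in eKD2. The 4 groups did not overlap, and their order was normoxia, eKD1, eKD2 and control hypoxia. The ratio of IRS2 to IRS1 was 6.37 and 9.21 in control normoxia, 6.14 and 8.60 in control hypoxia, 5.38 and 6.51 in eKD1 and 3.41 and 3.96 in eKD2. Only the eKD2 libraries stood apart there, below all others.

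For the receptors, the ratio of IGF1R to INSR was 2.90 and 3.12 in control normoxia, 4.02 and 2.53 in control hypoxia, 2.29 and 3.75 in eKD1 and 4.37 and 4.86 in eKD2. The eKD2 libraries were highest, but the spread within control hypoxia and eKD1 was as large as the step to them. The ratio of IGF2R to IGF1R ranged from 0.879 to 1.80. It was 1.31 and 1.25 in eKD2, below both control groups, which overlapped each other, and only 1 library, of eKD1, had more IGF1R than IGF2R.

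IGFBP1 to IGFBP7 summed to 249.8 and 259.1 FPKM in control normoxia, 430.9 and 403.1 in control hypoxia, 333.6 and 367.2 in eKD1 and 347.9 and 350.1 in eKD2. IGFBP2 made up 66.2% and 68.3% of that sum in control normoxia and 80.1% and 78.2% in control hypoxia. In eKD1 it made up 72.0% and 72.6%, and in eKD2 73.7% and 73.9%, between the 2 control groups in each library. IGFBP5 made up 18.4% and 17.5% in control normoxia, 8.40% and 9.22% in control hypoxia, 14.8% and 14.0% in eKD1 and 11.2% and 11.7% in eKD2. IGF1 per unit of that sum was 0.227 and 0.265 in control normoxia and 0.174 and 0.219 in control hypoxia, with eKD1 at 0.246 and 0.181 and eKD2 at 0.226 and 0.209, so that control normoxia stood above control hypoxia and eKD2, and eKD1 overlapped all other groups.

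**Figure D3:**
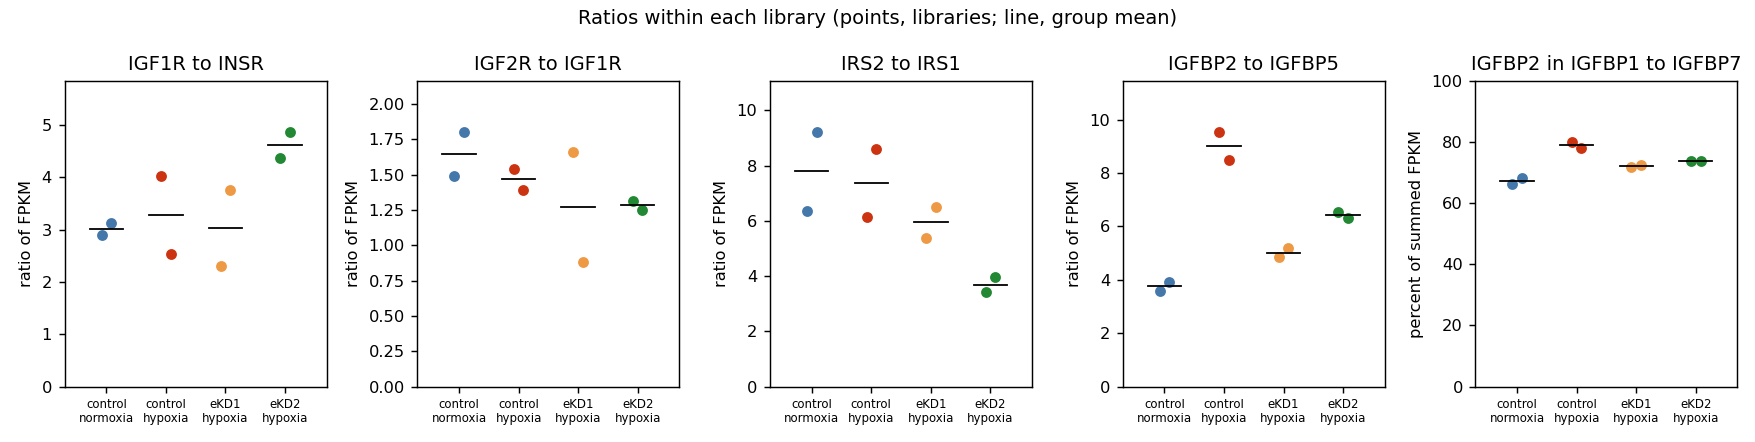
Ratios of FPKM between pairs of IGF axis genes, and the percent of the summed FPKM of IGFBP1 to IGFBP7 that is IGFBP2, in each of the 8 libraries on linear axes from 0 (points, libraries; lines, arithmetic means of the 2 libraries). IGFBP2 to IGFBP5 separates the 4 groups, from 3.60 to 9.54, and IRS2 to IRS1 is lowest in the eKD2 libraries, at 3.41 and 3.96.

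Beyond the 10 genes, a list of 82 others, most of which handle the ligands or carry the signal, was read in the same fits. Of these, 70 were tested. In hypoxia 25 of the 70 were called (35.7%), 13 higher and 12 lower, near the 32.2% of all genes. The balance of directions depended on the scaling, since at equal FPKM totals 33 were called, 9 higher and 24 lower. Their median difference was -0.04, against 0.01 for all genes. In eKD1 none was called, with 16 (22.9%) at an unadjusted limma p under 0.05, against 21.7% of all genes. In eKD2 10 were called (14.3%), 9 higher and 1 lower, against 9.61% of all genes, with a median of 0.22 against 0.05 for all genes. After rescaling by median ratios 9 were called there, 7 higher and 2 lower. Between the guides 2 were called (2.86%), both higher in eKD2, against 0.403% of all genes.

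Of 10 tested genes listed as binding proteins and ligand handling, 7 were called in hypoxia, 4 higher and 3 lower. Of all genes 32.2% were called. The list also holds mRNA binding proteins of the IGF2BP family, which make up most of the 3 lower calls, so the share is not one of ligand handling alone. STC1 and STC2, secreted stanniocalcins that inhibit PAPPA, both rose. STC1 had 0.0582 and 0.119 FPKM in control normoxia and 26.2 and 29.1 in control hypoxia, a difference of 4.72 (SE 0.143, limma adjusted p = 0.00386). With normoxic values so near 0, the 1 FPKM added before the log largely sets the size of that difference and understates the fold in FPKM. STC2 had 24.8 and 25.1 against 84.9 and 91.0, a difference of 1.78 (SE 0.0709, limma adjusted p = 0.00622). Their target PAPPA, the protease that frees IGFs from IGFBP4 and IGFBP5, fell from 49.8 and 47.1 FPKM to 31.4 and 37.7, a log2 difference of -0.48 (SE 0.116, limma adjusted p = 0.0488). In the same cells RNA of the inhibitors thus rose and that of the protease fell, with the call of PAPPA close to the threshold.

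In eKD2 both stanniocalcins went further up and not down, STC1 to 47.7 and 50.2 FPKM and STC2 to 158 and 153. Their differences from control hypoxia were 0.80 and 0.81 (limma adjusted p = 0.0310 and 0.0273). In eKD1 STC1 had 24.6 and 21.1 FPKM and STC2 101 and 88.6, with 95% intervals of -0.60 to 0.07 and -0.15 to 0.36. PAPPA had 60.4 and 44.1 FPKM in eKD1 and 40.3 and 38.0 in eKD2, and was called in neither.

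IGF2BP1, which binds IGF2 and many other mRNAs, had 109 and 118 FPKM in control normoxia, 55.8 and 51.7 in control hypoxia, 89.5 and 95.9 in eKD1 and 114 and 107 in eKD2. It fell in hypoxia by 1.06 on the log2 scale (limma adjusted p = 0.00809) and rose in eKD2 by 1.02 (0.0273). In eKD1 its difference of 0.77 had a 95% interval of 0.56 to 0.99 but was not called (limma adjusted p = 0.102). All knockdown libraries lay above both control hypoxia libraries.

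Among the other binding proteins, IGFBP6, which prefers IGF2, rose in hypoxia from 7.69 and 8.16 to 12.0 and 13.8 FPKM (0.64, limma adjusted p = 0.0335). IGFBP1, a HIF target in liver, was listed at 0 in every library. IGFBP3, which the fusion is known to repress in Ewing sarcoma, did not exceed 0.781 FPKM in any library, and IGFBP7 did not exceed 1.77. IGFBP1 and IGFBP3 were below the filter, and IGFBP7 was called in no comparison.

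Of 15 adaptors and relatives tested, 4 were called in hypoxia (26.7%, against 32.2% of all genes) and 3 in eKD2 (20%, against 9.61%). GRB14, an adaptor that binds the insulin receptor and inhibits its kinase, had 3.34 and 1.87 FPKM in control normoxia, 7.97 and 10.2 in control hypoxia, 2.91 and 3.22 in eKD1 and 2.82 and 3.04 in eKD2. Control hypoxia stood above all other libraries. GRB14 rose in hypoxia by 1.51 (limma adjusted p = 0.0284) and fell in eKD2, with a log2 difference of -1.35 (limma adjusted p = 0.0355) and a difference of -1.30 in eKD1 that was not called (limma adjusted p = 0.111). SHC2, an adaptor of the SHC family, rose in eKD2 to 25.8 and 23.5 FPKM from 10.7 and 8.24 (1.30, limma adjusted p = 0.0345).

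In the PI3K to AKT and FOXO list 9 of 28 tested genes were called in hypoxia, 4 higher and 5 lower, a share of 32.1% that is the background of 32.2%. PIK3R3, a regulatory subunit of PI3K, had 21.8 and 24.0 FPKM in control normoxia and 7.60 and 6.86 in control hypoxia, the largest fall (1.54 lower on the log2 scale, limma adjusted p = 0.00809). MTOR, the kinase that drives growth, and GSK3B, a kinase that AKT inhibits, fell by 1.02 and 1.00 on the log2 scale (limma adjusted p = 0.0151 and 0.0212). FOXO3, a transcription factor that AKT holds in check, was not called in any comparison, but lay just outside the threshold in hypoxia. It had 5.56 and 5.91 FPKM in control normoxia and 8.23 and 9.02 in control hypoxia, 0.51 higher (95% interval 0.16 to 0.87, limma adjusted p = 0.0517). In eKD1 it had 8.35 and 7.95 FPKM (interval -0.42 to 0.28). In eKD2 it had 11.9 and 11.5, 0.40 above control hypoxia (0.09 to 0.71, limma adjusted p = 0.102). FOXO1 differed between duplicates as much as between groups, with 8.81 and 18.8 FPKM in control normoxia, 19.1 and 8.30 in control hypoxia and 21.0 and 8.58 in eKD1. Its eKD2 libraries, at 33.9 and 34.9, lay above all of these, and the difference of 1.37 from control hypoxia was not called (limma adjusted p = 0.117).

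TRIB3, a pseudokinase that binds AKT, and EIF4EBP1, the translation repressor that MTOR phosphorylates, were the 2 genes called between the guides. TRIB3 had 6.63 and 8.34 FPKM in control normoxia, 22.4 and 23.6 in control hypoxia, 7.98 and 9.59 in eKD1 and 36.0 and 37.3 in eKD2. EIF4EBP1 had 458 and 443, 750 and 751, 558 and 567, and 916 and 966 FPKM in the same order. In both genes the eKD1 libraries lay between control normoxia and control hypoxia or overlapped the former, and the eKD2 libraries above control hypoxia. TRIB3 rose in hypoxia by 1.51 (limma adjusted p = 0.00976) and in eKD2 by 0.65 (0.0331), and EIF4EBP1 by 0.74 (0.00665) and 0.33 (0.0359). Both genes had a negative difference in eKD1 that was not called, -1.30 and -0.42 (limma adjusted p = 0.102 for each). In the RAS to MAPK list 5 of 17 tested genes were called in hypoxia (29.4%, against 32.2% of all genes) and 1 in eKD2 (5.88%, against 9.61%).

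**Figure D4:**
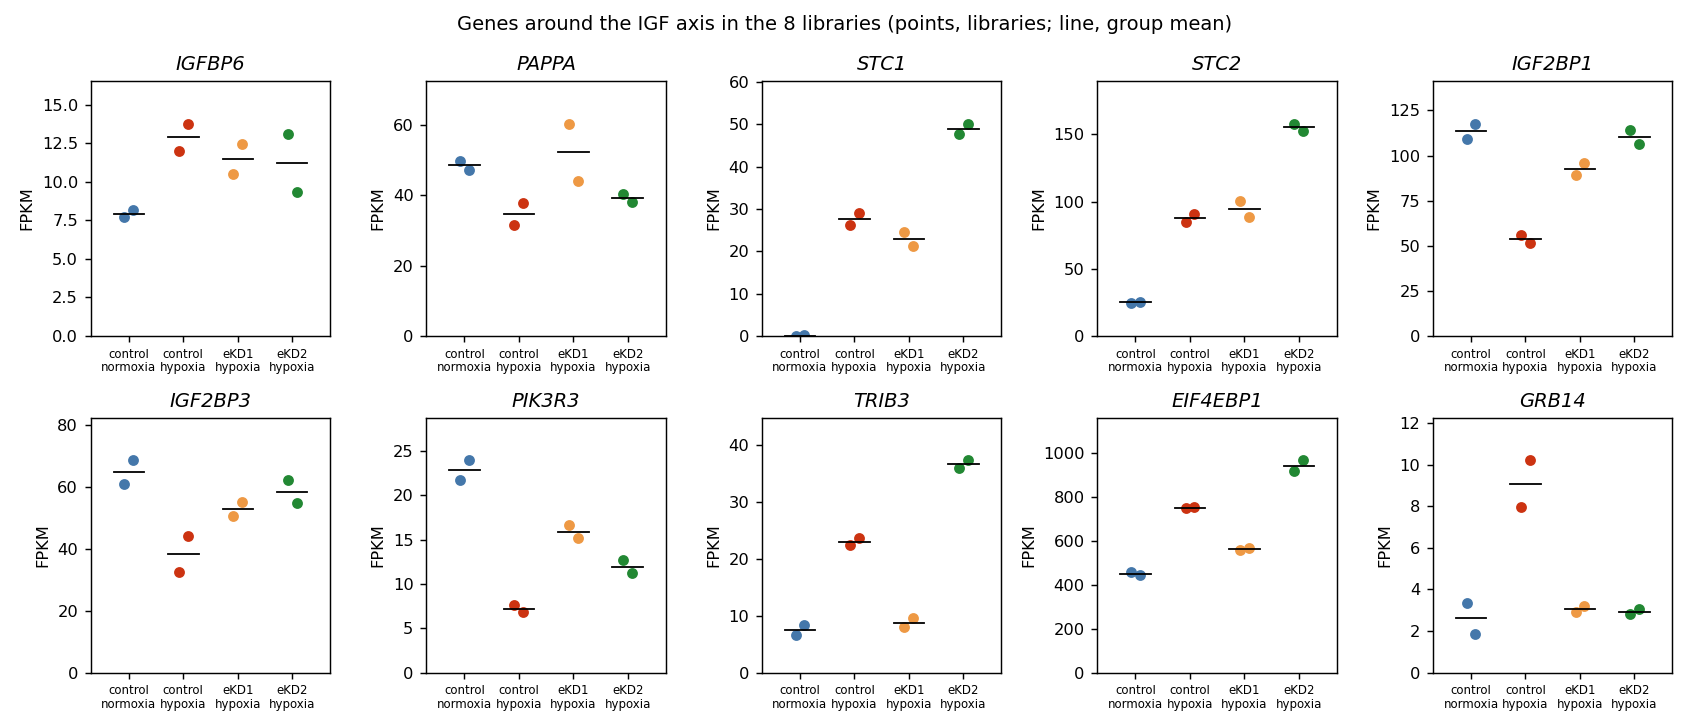
FPKM of 10 genes around the IGF axis in each of the 8 libraries, with 1 panel per gene on its own linear axis from 0 (points, libraries; lines, group means). STC1, STC2, TRIB3 and EIF4EBP1 are highest in eKD2, GRB14 is highest in control hypoxia, and IGF2BP1 and PIK3R3 are lowest there.

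Among 9789 genes compared over the 8 libraries, those whose pattern was most like that of IGFBP2 were PPDPF, RAB24 and CST3, with Pearson r of 0.995, 0.992 and 0.990 on log2(FPKM + 1). For IRS2 they were AMMECR1L, TMEM178B and DIAPH3 (0.990, 0.989 and 0.988), and for IRS1 SMOX, CDC14B and BRAP (0.968, 0.967 and 0.964). These r are the highest of many over libraries that form 4 pairs, and are given as a description.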

How the data were processed

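Poly-A RNA from 8 SK-N-MC libraries was read as single ends of 75 bases. The authors aligned reads to GRCh37 with STAR, assembled transcripts with cufflinks and computed the deposited FPKM with cuffnorm; the scaling between libraries and the counting by strand are not given in the sources used here. Cufflinks shares reads among overlapping genes, so values of such genes are uncertain. The study fitted a count model to read counts. The values here are not counts, so limma was used instead.

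The titles of the samples gave the groups and the replicate numbers. The 10 genes, the gene lists, tests and alternatives were chosen with earlier results of these data known. Values were transformed to log2(FPKM + 1), which understates the change of low genes. Of 60332 genes, 33177 were at 0 in every library, and the 15372 that reached 1 FPKM in 2 or more libraries were tested in limma 3.58.1 (R 4.3.3, lmFit and eBayes with trend), with two-sided p-values. The procedure was also run on simulated data, drawn as independent normal values with spreads estimated from these libraries. Such data meet the assumptions of the fit by construction, so that run cannot speak to the calls given here. Named genes were the 10, fixed relatives (IGFBP1, IGFBP3, IGFBP6, IGFBP7, PAPPA, FOXO1 and FOXO3; 1 further gene is not reported here), and up to 4 called list genes per direction and comparison with at least 5 FPKM in the higher group; EIF4EBP1 and TRIB3 also by that rule, and their and other named genes' values in further comparisons for context. IGF2BP3 is drawn only. Likeness was Pearson r over genes with a mean of at least 5 FPKM. Gene positions are from GENCODE on GRCh37. Duplicates correlated at 0.978 to 0.982, libraries of different groups at 0.967 to 0.980, so the ranges overlapped, and no libraries were identical. The settings varied were the pseudocount (0.1), the filter (none, or a mean of 5 FPKM), rescaling by median ratios, equal FPKM totals, a shared fit, no variance trend, a replicate block, and leaving out each library. PECAM1 was not analysed here.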

Additional observations from a re-analysis of the deposited data

Results flagged for a closer look

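Both genes of the wider list that passed the direct test between the guides are given here, because the same enhancer was targeted in each. TRIB3 was higher in eKD2 than in eKD1 by 1.95 (SE 0.124, limma adjusted p = 0.0461), with both eKD2 libraries above both eKD1 libraries. EIF4EBP1 was higher by 0.74 (SE 0.0466, limma adjusted p = 0.0461), also without overlap. LOXHD1 itself differed by -0.43 (limma adjusted p = 0.162) between them. With 1 library left out neither gene was called.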

How the results depend on the processing

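Of 288 alternative fits of single genes of the axis that kept all libraries, 263 kept direction and side of the threshold. Most of these concern differences that were uncalled in the main fit. Of 8 such fits each, the calls in hypoxia held in 8 for IGFBP2 and IRS2, 6 for IGFBP5 and 4 for IGFBP4. Those in eKD2 held in 6 for IRS2 and 5 for IRS1. The number of axis genes called in hypoxia, 4, was 2 without the variance trend; in eKD2, 2 became 1 without the filter on low values and 0 without the trend. In the shared fit of 8 libraries 3 were called in eKD1 and 1 between guides, where each had been 0. Of the wider list, the 25 called in hypoxia became 12 without the filter. The 10 in eKD2 became 4 without the filter, 18 in the shared fit and 0 without the trend. The 2 between guides became 0 without the filter, at equal FPKM totals or without the trend, 1 after median-ratio rescaling and 9 in the shared fit, which also called 7 in eKD1. With 1 library left out, each of these counts ran from 0 to 0; the fit then has 3 libraries and assumes that the lone sample varies like the other pair. The replicate block left 2 axis genes and 16 list genes called in hypoxia and 0 and 0 in eKD2, with 0 list genes between guides. Replicate numbers were not taken as pairs, since deviations of same-numbered libraries correlated at -0.05 to 0.04. Differences that turned sign were all uncalled. At equal totals they were IGF1R -0.053, IGF2R -0.21 and INSR -0.12 in hypoxia and IGF1 0.0035 in eKD2; after median-ratio rescaling IGF2R -0.0071 in eKD2, and IGF1 -0.012 and IGFBP2 -0.023 between guides. With 1 library left out, IGF2R in hypoxia ran from -0.22 to 0.27 and INSR from -0.045 to 0.23. In eKD1 IGF1 ran from -0.29 to 0.012, IGF1R from -0.24 to 0.44 and IGF2R from -0.42 to 0.075. In eKD2 IGF1 ran from -0.22 to 0.014 and IGF2R from -0.19 to 0.31. Between guides IGF1 ran from -0.11 to 0.19, IGF1R from -0.19 to 0.49 and IGFBP2 from -0.049 to 0.10. The log2 ratio of IGF2 to IGF1 in control hypoxia, -11.35, was -9.23 with 0.1 added to both values. The causes of these shifts were not tested. With 2 libraries per group and depth unknown, small changes could not be resolved.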
